A study of Mus musculus with 18 samples.

Results

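Described here is what NIK SMI1, a compound that inhibits the kinase NIK, did to gene expression in primary murine epithelial cells of the renal tubulointerstitium (RPTEC) held under the cytokine TWEAK for 24 h. It sets 3 samples given TWEAK and NIK SMI1 against 3 samples given TWEAK. It describes which expression under TWEAK at 24 h changed with the inhibitor. Whether a change came from NIK activity or from another effect of the compound was not tested. All genes with more than 10 reads in at least 4 of the 18 samples of the series were considered, whether the inhibitor lowered or raised them. Of the 36528 genes in the files, 15521 met that rule. Of these, 11 genes of pancreatic islets (Ins1, Ins2, Iapp, Gcg, Chga, Scg2, Pcsk2, Ttr, Sct, G6pc2 and Slc30a8) were set aside as foreign reads, which left 15510 tested genes.

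The cells were commercial RPTEC of C57BL/6 mice, treated with recombinant mouse TWEAK at 100 ng/mL, with TWEAK and 3 μM NIK SMI1, or with the vehicle DMSO, for 6 h or 24 h, with 3 replicates in each of the 6 groups. No group received NIK SMI1 without TWEAK, so an effect of the compound on unstimulated cells cannot be told apart from its effect on TWEAK signaling. The sources name no separate animals or cell preparations, and p-values therefore measure the spread between cultured samples, which may be technical. Gene expression was measured by RNASeq as reads per gene, and levels are given as CPM, the reads of a gene scaled to a common library size and composition.

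TWEAK is a TNF family cytokine that signals through the receptor Fn14, the product of Tnfrsf12a. In the resting cell NIK, the product of Map3k14, is continuously degraded by a complex of TRAF and cIAP proteins. Once a receptor engages that complex, NIK accumulates and drives the processing of p100, the product of Nfkb2, to p52, which enters the nucleus mainly with RelB. The canonical pathway runs through the IKK complex, the degradation of IκB proteins and the release of RelA and p50, and its target genes include its own inhibitors. Tubular epithelium under TWEAK is known for producing chemokines and adhesion molecules that draw leukocytes into the kidney.

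Between 22697596 and 46721839 reads per sample were counted in the 6 samples, so that 3 reads stand for 0.0623 to 0.129 CPM. Every pair of replicates varied beyond counting noise, and none looked like a single library under 2 names. Reads of the 11 islet genes separated the samples. They summed to 20.1, 0.249 and 6.03 CPM in TWEAK samples 1 to 3, to 0.109, 0.142 and 0.0633 CPM in the samples with NIK SMI1 and to between 20.1 and 26.8 CPM in the vehicle samples of 24 h. The leading counts below are therefore also given without TWEAK samples 1 and 3, the samples with islet reads. In that fit the lone TWEAK sample is assumed to vary like the other groups. Over all tested genes, far fewer passed at any size in that fit, in both directions. A smaller count for a gene list in that fit is therefore no result about the list. Of 20 markers of the proximal tubule, 7 had enough reads to be tested, among them the glucose transporter Slc5a2 and the endocytic receptor Cubn. The tested ones summed to 19.2 to 20.9 CPM with TWEAK and to 16.7 to 19.5 CPM with NIK SMI1. Those sums were below the sums of the leukocyte and endothelial markers given below, which are other genes. The transporters Slc22a8, Slc22a12, Slc13a3, Slc27a2 and Slc7a13, the androgen-regulated protein Kap and the inositol oxygenase Miox had 0 reads in all 6 samples. Of 14 markers of epithelium 13 were tested, and their summed level lay between 10400 and 10600 CPM with TWEAK and at 11200 CPM in each sample with NIK SMI1. Leukocyte markers, of which 3 of 14 could be tested, summed to 24.7 to 26.9 CPM with TWEAK and to 21.2 to 22.5 CPM with the inhibitor. Endothelial markers (4 of 9 tested) summed to 24.2 to 25.7 and 21.9 to 24 CPM, and fibroblast and pericyte markers (6 of 10 tested) to 19.9 to 25.8 and 19.1 to 22.9 CPM. Of 17 tested further markers of islets and exocrine pancreas, 1 was lowered and 0 were raised. Their median log2 fold change was -0.31 with all samples, against 0.0084 for all tested genes, and 0.14 without TWEAK samples 1 and 3. Leaving out single samples gave from 0 lowered (without NIK SMI1 sample 3) to 4 lowered (without TWEAK sample 2). Among all tested genes 8.21% were lowered and 10.2% raised. The part of other cells in the results was not tested. In these bulk samples, fewer cells of a type and less RNA per cell cannot be told apart.

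NIK SMI1 lowered the expression of genes of leukocyte recruitment, NF-κB feedback and matrix degradation, and raised genes that included most of the sterol and fatty acid synthesis pathway. Past an adjusted p-value of 0.05 and a change of more than 1.5-fold, 260 genes were lowered (1.68% of the tested genes) and 234 were raised (1.51%). At an adjusted p-value of 0.05 and any size, 1274 genes were lowered (8.21%) and 1578 were raised (10.2%). These 2 shares are the background for the counts of list members at any size below. The lowered side held the larger changes. The median change of the 260 lowered genes was 2.05-fold (log2 -1.03), 137 of them fell by more than 2-fold and 27 by more than 4-fold. Among the 234 raised genes the median change was 1.74-fold (log2 0.80), 65 rose by more than 2-fold and 3 by more than 4-fold. For comparison, the median log2 fold change of all tested genes was 0.0084. The 3 samples with NIK SMI1 lay entirely below the 3 TWEAK samples for 250 of the 260 lowered genes and entirely above them for 222 of the 234 raised genes, while separation in either direction was found in 33.8% of all tested genes. With 3 samples on each side, exact permutation cannot reach a two-sided p below 0.1, and the calls rest on the spread that edgeR shares across genes.

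**Figure D1:**
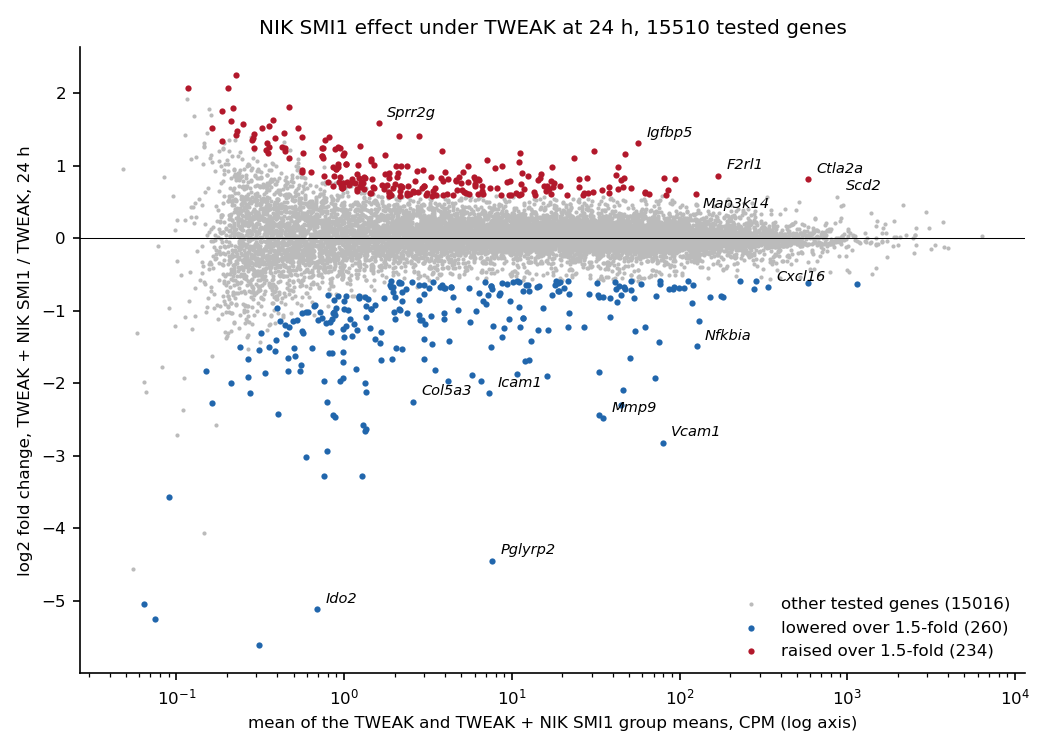
Log2 fold change of TWEAK with NIK SMI1 over TWEAK at 24 h (vertical) against the mean level of both groups in CPM (horizontal, log axis), 1 point per tested gene. The 260 genes lowered by more than 1.5-fold (blue) reach further from 0 than the 234 raised ones (red), and Vcam1 and Mmp9 combine a high level with a large decrease.

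When the TWEAK samples with islet reads were left out, 192 genes were lowered and 151 raised past both cut-offs, and 181 of the 260 and 123 of the 234 genes passed again. The lowered set included Maob and Rimbp2, chosen here after their values were seen. Maob had 5, 0 and 10 reads in the TWEAK samples and Rimbp2 had 4, 0 and 9, with 0 reads in every sample with NIK SMI1, so that the reads of both lay in the samples with islet reads. Among the lowered genes 41, and among the raised genes 37, had a mean below 1 CPM in both groups, and their fold changes rest on few reads.

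Among genes with at least 1 CPM in either group, separated samples and a change past both cut-offs, the largest decreases were those of Ido2 and Pglyrp2. Ido2, which encodes an enzyme of tryptophan breakdown, stood at 1.16, 1.25 and 1.61 CPM in the TWEAK samples and at 0.0218, 0.0567 and 0.0317 CPM with NIK SMI1. The level with the inhibitor came from 1, 2 and 1 reads, so the decrease was well beyond the spread but its size (log2 fold change -5.12, SE 0.47, adjusted p = 3.28e-09) is loosely fixed. Pglyrp2 encodes an amidase that cleaves bacterial peptidoglycan. It measured 15.9, 13.8 and 14.2 CPM with TWEAK and 0.764, 0.539 and 0.665 CPM with NIK SMI1 (log2 fold change -4.45, SE 0.16, adjusted p = 1.73e-17). No vehicle sample of 24 h came near the TWEAK level of Pglyrp2, with a mean of 0.0152 ± 0.0264 CPM (SD, n = 3).

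Among genes above 20 CPM with TWEAK, Vcam1, the adhesion molecule to which leukocyte α4 integrins bind, fell most. Its level was 141, 135 and 141 CPM in the TWEAK samples and 21.3, 19.7 and 17.7 CPM in those with NIK SMI1, a 7.05-fold decrease (log2 fold change -2.82, SE 0.061, adjusted p = 5.54e-22). The groups were far apart, and with the inhibitor Vcam1 still lay above the vehicle mean of 5.84 ± 0.493 CPM (log2 fold change 1.72 over vehicle, adjusted p = 2.15e-14). Mmp9, a gelatinase that degrades basement membrane, had 59.7, 59.3 and 60 CPM with TWEAK, a spread of under 1 CPM, and 10.3, 11 and 10.8 CPM with NIK SMI1 (log2 fold change -2.48, SE 0.073, adjusted p = 2.96e-19). For Traf1, an adaptor protein of TNF receptors, the values were 53.7, 57.9 and 56.8 CPM and 10, 10.2 and 11.1 CPM (log2 fold change -2.43, SE 0.075, adjusted p = 7.36e-19). The chemokine gene Ccl9 measured 72.7, 74.7 and 76.3 CPM with TWEAK and 14.8, 15.1 and 15.8 CPM with the inhibitor (log2 fold change -2.29, SE 0.055, adjusted p = 4.46e-21). In these 4 genes every vehicle sample was lowest, every TWEAK sample highest and every sample with NIK SMI1 between, as the plot of levels by sample shows. The rule for the largest decreases required the TWEAK and NIK SMI1 samples to lie apart, but not the place of the vehicle samples.

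**Figure D2:**
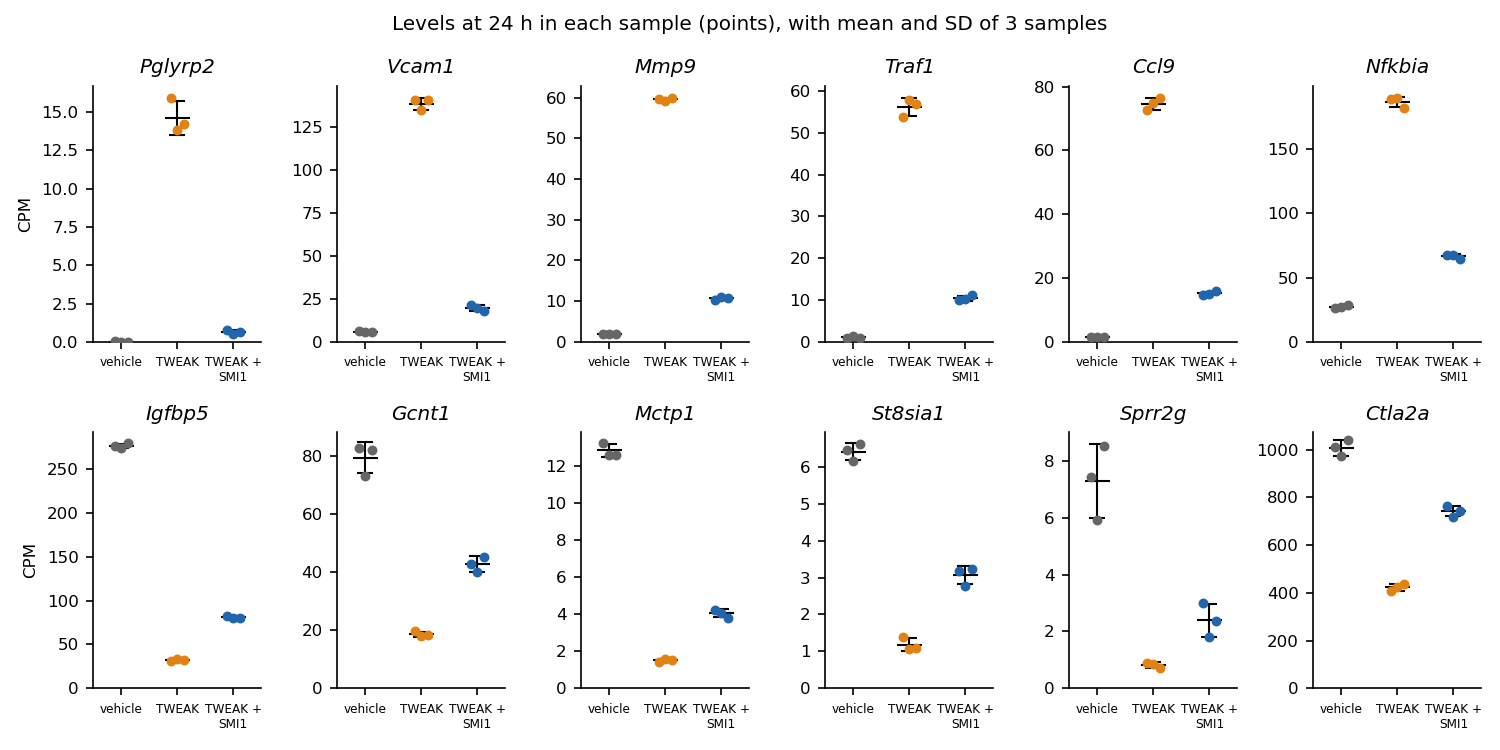
Levels in CPM (vertical, linear from 0) of 6 lowered and 6 raised genes in the 24 h samples given vehicle, TWEAK or TWEAK with NIK SMI1, with points for samples and bars for mean and SD (n = 3). In every panel the 3 samples with NIK SMI1 lie apart from the 3 TWEAK samples and between them and the vehicle samples. The rule that picked the genes other than Nfkbia and Ctla2a required TWEAK and NIK SMI1 samples to lie apart.

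The remaining genes among the 15 largest decreases were low in level. Slc7a2, a transporter of cationic amino acids, measured 1.21, 0.81 and 1.15 CPM with TWEAK and 0.0655, 0.198 and 0.127 CPM with NIK SMI1 (log2 fold change -3.01, SE 0.42, adjusted p = 3.91e-06). Dock10, a guanine nucleotide exchange factor, measured 1.98, 2.68 and 2.34 CPM and 0.458, 0.397 and 0.253 CPM (log2 fold change -2.63, SE 0.26, adjusted p = 1.49e-08). Zbtb7c, a zinc finger protein, measured 1.98, 2.6 and 2.41 CPM and 0.24, 0.198 and 0.285 CPM (log2 fold change -3.28, SE 0.32, adjusted p = 1.36e-08). None of these 3 genes had overlapping samples, because the rule for the largest decreases required separation. The log2 fold changes of the others were -3.28 for Ccdc33, -2.93 for Adtrp, -2.66 for Ucma, which encodes a secreted protein of cartilage matrix, -2.57 for C730036E19Rik, -2.46 for Islr2 and -2.44 for the inhibitory receptor gene Lilrb4a. Lilrb4a has a near-identical copy that could share its reads, and its value is uncertain for that reason.

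Genes of the TWEAK receptor and of non-canonical NF-κB were mostly lowered, while the gene of the drug target itself was raised. Of 14 members tested, 8 were lowered and 1 was raised at any size, with a median log2 fold change of -0.22, and 3 fell by more than 1.5-fold (7 lowered and 1 raised in the fit without islet reads). The receptor gene Tnfrsf12a measured 418, 405 and 391 CPM with TWEAK and 408, 398 and 397 CPM with NIK SMI1 (log2 fold change -0.012, SE 0.039, adjusted p = 0.895), and its samples overlapped. Map3k14, the gene of NIK, measured 116, 105 and 104 CPM with TWEAK and 128, 142 and 136 CPM with NIK SMI1 (log2 fold change 0.33, SE 0.052, adjusted p = 3.37e-05). Its vehicle mean was 56 ± 2.51 CPM, below all 6 samples.

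Nfkb2, which encodes p100, stood at 483, 468 and 458 CPM with TWEAK and at 318, 320 and 325 CPM with NIK SMI1 (log2 fold change -0.55, SE 0.036, adjusted p = 5.8e-12). Its partner gene Relb measured 71.3, 67.9 and 63.9 CPM and 45.2, 45.5 and 44.3 CPM (log2 fold change -0.58, SE 0.045, adjusted p = 1.69e-10). For both the decrease was clear of the spread but did not exceed 1.5-fold. Per length of transcript, as RPKM given by the authors and averaged over each group, Nfkb2 was at 26.6 with vehicle, 97 with TWEAK and 66.5 with NIK SMI1. Relb was at 11.4, 25.5 and 17 RPKM, and Rela at 51.6, 69.2 and 59 RPKM. On this scale the order of the 3 subunits was Rela, Nfkb2, Relb with vehicle and Nfkb2, Rela, Relb in both groups given TWEAK. Birc3 and Birc2, which encode the cIAP proteins that mark NIK for degradation, fell further. Birc3 measured 38.7, 35.9 and 37.8 CPM with TWEAK and 17.2, 14.2 and 16.6 CPM with NIK SMI1 (log2 fold change -1.22, SE 0.067, adjusted p = 2.02e-13). Birc2 measured 48.4, 55.3 and 55.7 CPM and 34.7, 34 and 32.2 CPM (log2 fold change -0.66, SE 0.060, adjusted p = 2.71e-09).

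The genes of canonical NF-κB and its feedback had the highest share of lowered members among the lists with at least 10 tested genes. Of 23 tested, 16 were lowered and 1 was raised at any size, 5 fell by more than 1.5-fold, and the median log2 fold change was -0.36. In the fit without islet reads, 12 were lowered and 0 raised. Both subunit genes named here fell by less than 1.5-fold. Rela measured 205, 206 and 206 CPM with TWEAK and 179, 177 and 170 CPM with NIK SMI1 (log2 fold change -0.23, SE 0.031, adjusted p = 2.56e-06), and Nfkb1, which encodes p105 and p50, 243, 227 and 239 CPM and 188, 181 and 185 CPM (log2 fold change -0.36, SE 0.032, adjusted p = 2.76e-09). Nfkbia, Nfkbie and Tnip1, genes of feedback inhibitors, fell by more than Rela and Nfkb1. Nfkbia, which encodes IκBα, measured 189, 190 and 182 CPM with TWEAK and 67.6, 67.4 and 64.6 CPM with NIK SMI1 (log2 fold change -1.49, SE 0.042, adjusted p = 9.74e-20). Nfkbie, which encodes IκBε, measured 77.4, 81.1 and 72.8 CPM and 33.9, 32.2 and 28.4 CPM (log2 fold change -1.29, SE 0.058, adjusted p = 2.27e-15). Tnip1, a partner of the deubiquitinase A20, measured 150, 143 and 146 CPM and 92.7, 94.1 and 93 CPM (log2 fold change -0.65, SE 0.037, adjusted p = 3.53e-13). In all 3 the samples with the inhibitor lay below every TWEAK sample and above the vehicle means of 27.4, 10.3 and 77.6 CPM.

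Several of these genes carry a match to the decameric NF-κB (κB) motif shortly before their annotated start. The stretches below come from 7 NF-κB feedback, chemokine and growth factor genes that fell, picked because their windows hold a match. Other lowered genes of these classes had no window, had no match or are not shown. They were read from the RefSeq promoter table of GRCm38.p6, run 5′ to 3′ along the strand of the gene and lie before its start, with matches to the motif on either strand in capitals, overlapping matches included.
Nfkbia, chr12:55492648-55492701, - strand: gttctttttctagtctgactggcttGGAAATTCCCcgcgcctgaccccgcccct
Nfkbie, chr17:45555569-45555628, + strand: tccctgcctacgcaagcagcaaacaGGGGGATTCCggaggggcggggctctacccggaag
Tnip1, chr11:54962962-54963023, - strand: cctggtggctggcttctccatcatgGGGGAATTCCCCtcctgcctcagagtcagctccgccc
Nfkb2, chr19:46304673-46304736, + strand: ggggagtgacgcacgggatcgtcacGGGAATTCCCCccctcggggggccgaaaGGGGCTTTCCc
Cxcl10, chr5:92348958-92349073, - strand: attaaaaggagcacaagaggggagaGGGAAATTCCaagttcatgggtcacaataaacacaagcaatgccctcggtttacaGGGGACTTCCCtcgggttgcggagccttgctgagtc
Ccl9, chr11:83578637-83578696, - strand: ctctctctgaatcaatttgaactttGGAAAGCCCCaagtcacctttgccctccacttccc
Csf1, chr3:107760589-107760648, - strand: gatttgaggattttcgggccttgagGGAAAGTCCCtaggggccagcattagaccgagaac

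In Nfkbia the match begins 29 bases before the start. In Ccl9 the match begins 35 bases before the start and in Csf1 154 bases before. Nfkb2, Tnip1 and Cxcl10 each hold 3 matches, some of them overlapping. A window of promoter sequence was at hand for 178 of the lowered genes and 168 of the raised genes. The motif was found on either strand in 37 of the 178 (20.8%), in 25 of the 168 (14.9%) and in 1343 of the 10874 other tested genes with a window (12.4%). These are shares of genes with a match in any of their windows. Counted per window, 2779 of all 32851 windows of the same length (8.46%) held it. A gene can have several windows, so that share is not on the same scale. A match describes the letters in the window and is no measurement of binding.

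Chemokine genes showed the largest median decrease of any list with at least 10 tested genes. Of 30 chemokine genes, 15 had enough reads to be tested, and 9 of these were lowered and 1 was raised at any size, with 8 lowered by more than 1.5-fold and a median log2 fold change of -0.64. With the islet-read samples left out, 7 were lowered and 0 raised. Untested members reached at most 23 reads in any of the 6 samples, and 6 had no read. Cx3cl1, the membrane-bound chemokine fractalkine, measured 179, 181 and 181 CPM with TWEAK and 90.2, 79.3 and 75.8 CPM with NIK SMI1 (log2 fold change -1.14, SE 0.047, adjusted p = 4.45e-16). Cxcl16, the ligand of CXCR6, was the most abundant of the named chemokine genes by read count, at 416, 410 and 424 CPM with TWEAK and 262, 262 and 258 CPM with the inhibitor (log2 fold change -0.68, SE 0.038, adjusted p = 2.28e-13). The interferon-inducible T cell chemokine gene Cxcl10 measured 10.1, 10.6 and 10.6 CPM and 2.86, 2.98 and 2.09 CPM (log2 fold change -1.97, SE 0.14, adjusted p = 2.39e-11). No named chemokine returned to the vehicle means, which were 38 CPM for Cx3cl1, 154 CPM for Cxcl16, 0.978 CPM for Cxcl10 and 1.47 CPM for Ccl9.

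Among cytokines, growth factors and their receptors, most members were lowered or did not pass, and a few were raised. Of 34 tested, 14 were lowered and 4 were raised at any size (9 and 1 by more than 1.5-fold), with a median of -0.20 on the log2 scale. The fit without islet reads gave 11 and 2. Csf1, the growth factor of macrophages, measured 236, 226 and 232 CPM with TWEAK and 132, 134 and 130 CPM with NIK SMI1 (log2 fold change -0.81, SE 0.033, adjusted p = 2.09e-16). The samples with the inhibitor lay nearer to the vehicle mean of 114 ± 1.36 CPM than to any TWEAK sample. Csf2, which encodes GM-CSF, measured 15.1, 15.9 and 16.8 CPM and 7.12, 7.54 and 7.85 CPM (log2 fold change -1.10, SE 0.084, adjusted p = 1.15e-10). Both chains of the receptor for interleukin 18 fell as well. Il18rap measured 127, 130 and 138 CPM with TWEAK and 81.1, 81.8 and 82.5 CPM with NIK SMI1 (log2 fold change -0.69, SE 0.044, adjusted p = 4.46e-12), and Il18r1 measured 172, 179 and 177 CPM and 118, 119 and 124 CPM (log2 fold change -0.55, SE 0.036, adjusted p = 5.47e-12). In the latter gene the decrease was under 1.5-fold.

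Of 11 tested adhesion molecules, 6 were lowered (4 by more than 1.5-fold) and 2 were raised, with a median of -0.17, and without the TWEAK samples with islet reads the counts were 4 and 2. Beside Vcam1, the integrin ligand gene Icam1 fell from 11.8, 12 and 11.9 CPM with TWEAK to 2.86, 2.13 and 3.1 CPM with NIK SMI1 (log2 fold change -2.14, SE 0.14, adjusted p = 3.18e-12). Cd44, the hyaluronan receptor, measured 906, 907 and 930 CPM and 639, 676 and 667 CPM (log2 fold change -0.47, SE 0.034, adjusted p = 4.31e-11). Cadm1, a homophilic adhesion molecule of epithelium, moved the other way, from 77.7, 77.7 and 74.8 CPM to 95.4, 95.9 and 100 CPM (log2 fold change 0.34, SE 0.042, adjusted p = 7.47e-07). The other raised member, Mcam, named here after its values were seen, is an adhesion molecule of vascular and epithelial cells and changed by 0.37 on the log2 scale (adjusted p = 1.56e-06).

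Among matrix proteases and their inhibitors, 10 of 25 tested genes were lowered (5 by more than 1.5-fold) and 3 were raised, with a median of -0.081, and without the TWEAK samples with islet reads 8 and 2. Adam8, a membrane metalloprotease of inflamed tissue, measured 113, 114 and 114 CPM with TWEAK and 75.3, 67.1 and 71.1 CPM with NIK SMI1 (log2 fold change -0.67, SE 0.041, adjusted p = 1.5e-12), close to its vehicle mean of 69.3 ± 0.634 CPM. Adamts5, which cleaves aggrecan and versican, rose from 65.2, 60.8 and 64.1 CPM to 92.7, 94.5 and 95.8 CPM (log2 fold change 0.58, SE 0.042, adjusted p = 5.16e-11). Collagens, laminins and other matrix genes changed in 11 of 32 tested cases, 7 lowered and 4 raised (6 and 3 without islet reads), and their median was -0.033. In that list the collagen gene Col5a3 stood out, at 4.4, 4.4 and 3.93 CPM with TWEAK and 0.917, 0.936 and 0.791 CPM with NIK SMI1 (log2 fold change -2.25, SE 0.21, adjusted p = 4.94e-09). It was the only member that fell by more than 1.5-fold. Lama3, a laminin chain of epithelial basement membrane, measured 1120, 1110 and 1190 CPM and 796, 869 and 858 CPM (log2 fold change -0.44, SE 0.039, adjusted p = 2.15e-09).

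Complement was represented by 12 tested genes, of which 1 was lowered, near the 8.21% of all tested genes, and 0 were raised. That gene was C3, the central component of the cascade, at 20.6, 17.6 and 19.9 CPM with TWEAK and 6.66, 5.81 and 5.25 CPM with NIK SMI1 (log2 fold change -1.68, SE 0.086, adjusted p = 3.6e-14). All 3 samples with the inhibitor lay below the vehicle mean of 8.75 ± 0.937 CPM (SD, n = 3), with a log2 fold change of -0.58 against vehicle (adjusted p = 7.28e-05).

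Genes of MHC class I and peptide loading were more often lowered than raised, by small amounts. Of 19 tested, 9 were lowered and 1 was raised at any size, but 1 passed 1.5-fold, and the median was -0.26. Leaving out the samples with islet reads gave 7 and 1. The member past 1.5-fold was Tapbpl, a peptide editor of class I molecules, at 25.5, 24.8 and 25.4 CPM with TWEAK and 17.4, 15.1 and 14.3 CPM with NIK SMI1 (log2 fold change -0.68, SE 0.067, adjusted p = 1.15e-08). Tapbp, which encodes tapasin, measured 212, 211 and 203 CPM and 160, 153 and 153 CPM (log2 fold change -0.42, SE 0.035, adjusted p = 5e-10). The class I heavy chain gene H2-D1 measured 136, 136 and 132 CPM and 113, 108 and 106 CPM (log2 fold change -0.30, SE 0.039, adjusted p = 1.29e-06), and its reads may be shared with related H2 genes. Psmb10, a subunit of the immunoproteasome, changed by -0.42 on the log2 scale (adjusted p = 2.9e-06). Of 6 tested genes of MHC class II and costimulation, 2 were lowered and 0 raised. Cd83 had 15, 19 and 34 reads in the TWEAK samples and 1, 0 and 0 with NIK SMI1 (adjusted p = 8.98e-06), too few for a size of the decrease. Cd74, the invariant chain, had 22, 35 and 37 reads and 10, 2 and 14 reads (adjusted p = 0.00322), and it did not pass without the TWEAK samples with islet reads (adjusted p = 0.0877).

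Interferon-stimulated genes and STATs changed in both directions. Of 36 tested, 7 were lowered and 4 raised at any size (6 and 2 in the fit without islet reads), and their median was -0.027. Among all tested genes 8.21% were lowered and 10.2% raised, so the raised share of this list lay near the background. Past 1.5-fold, 2 members were lowered and 3 raised, and the raised ones included Irf8, described below. The lowered members included feedback inhibitors of cytokine receptors. Socs1 measured 9.1, 9.01 and 8.0 CPM with TWEAK and 5.35, 4.76 and 4.08 CPM with NIK SMI1 (log2 fold change -0.86, SE 0.11, adjusted p = 1.74e-06), Socs3 28.3, 29.4 and 26.4 CPM and 20.3, 19.9 and 20 CPM (log2 fold change -0.48, SE 0.062, adjusted p = 1.29e-06) and Cish 39.9, 42.2 and 41.4 CPM and 32.4, 31.6 and 28.4 CPM (log2 fold change -0.42, SE 0.055, adjusted p = 1.88e-06). For Cish the mean with the inhibitor, 30.8 ± 2.1 CPM, did not differ from the vehicle mean of 31.9 ± 1.8 CPM past the test (log2 fold change -0.038, adjusted p = 0.743). Irf1, a transcription factor induced by interferon and NF-κB, measured 97.1, 103 and 101 CPM and 81.7, 73.4 and 73.7 CPM (log2 fold change -0.39, SE 0.046, adjusted p = 3.21e-07).

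**Figure D3:**
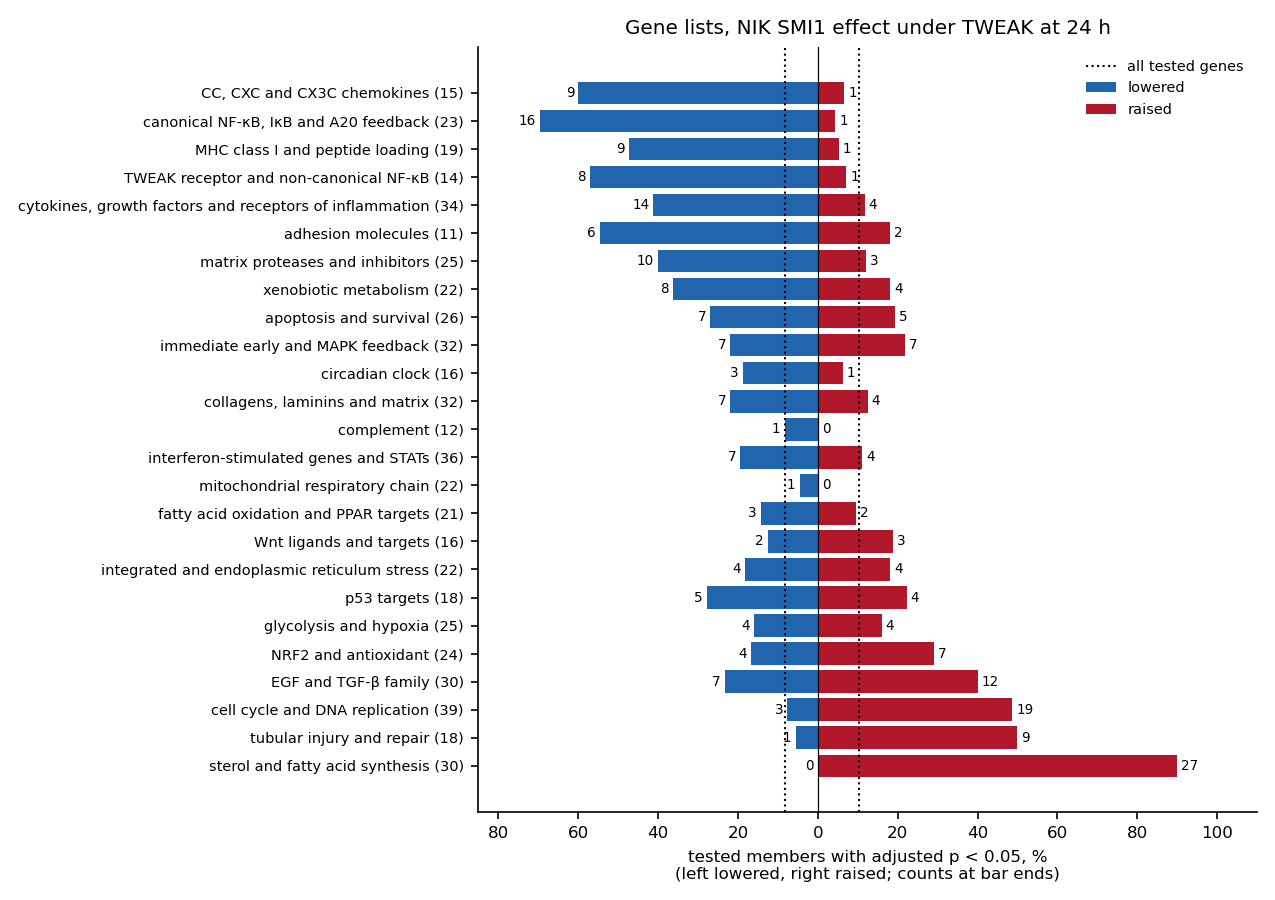
Share of the tested members of 25 gene lists that were lowered (blue, left) or raised (red, right) at an adjusted p-value below 0.05, with the number of tested members in brackets and counts at the bar ends. Dotted lines mark all tested genes (8.21% lowered, 10.2% raised), and the lists, in the order of their median fold change, run from chemokines to sterol and fatty acid synthesis.

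The genes that NIK SMI1 raised most included Igfbp5, which encodes a secreted binding protein of insulin-like growth factors. It stood at 31.5, 33.8 and 32.7 CPM in the TWEAK samples and at 82.4, 80.5 and 80.3 CPM with NIK SMI1 (log2 fold change 1.31, SE 0.049, adjusted p = 5.53e-17). The vehicle mean was 276 ± 2.36 CPM (SD, n = 3), so the samples with the inhibitor remained far below vehicle (log2 fold change -1.77, adjusted p = 3.23e-20). Gcnt1, a glycosyltransferase that branches O-glycans, measured 19.6, 18 and 18.3 CPM with TWEAK and 42.9, 40.2 and 45.3 CPM with NIK SMI1 (log2 fold change 1.21, SE 0.059, adjusted p = 1.48e-14). The uncharacterised gene ccdc198 measured 6.56, 6.46 and 7.51 CPM and 15.8, 14.7 and 16 CPM (log2 fold change 1.17, SE 0.084, adjusted p = 3.44e-11). In each of these 3 genes the samples of the inhibitor group lay entirely above those of TWEAK, which the rule that picked them required.

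Other raised genes were lower in level. Mctp1, a membrane protein with calcium-binding C2 domains, measured 1.42, 1.6 and 1.52 CPM with TWEAK and 4.23, 4.08 and 3.8 CPM with NIK SMI1 (log2 fold change 1.40, SE 0.14, adjusted p = 9.54e-09). Sprr2g, of the small proline-rich proteins of squamous epithelium, had the largest increase by the rule, from 0.906, 0.852 and 0.702 CPM to 2.99, 1.81 and 2.37 CPM (log2 fold change 1.58, SE 0.22, adjusted p = 3.4e-06), with a wide spread among the samples given the inhibitor. St8sia1, which encodes the synthase of ganglioside GD3, measured 1.38, 1.06 and 1.1 CPM and 3.19, 2.78 and 3.23 CPM (log2 fold change 1.41, SE 0.16, adjusted p = 9.35e-08). Tc2n measured 2.42, 2.24 and 2.27 CPM and 4.74, 5.3 and 5.98 CPM (log2 fold change 1.21, SE 0.14, adjusted p = 2.61e-07). A tight junction gene of the proximal tubule, Cldn2, rose from 1.12, 0.561 and 0.655 CPM to 2.18, 1.53 and 1.42 CPM (log2 fold change 1.27, SE 0.25, adjusted p = 0.000374). Near 1 CPM with NIK SMI1, the hexokinase Hkdc1 (1.35 on the log2 scale), the homeobox gene Lhx6 (1.25), the elastic fibre gene Fbln5 (1.25), the transcription factor Irf8 (1.24) and Veph1 (1.22) were raised as well. Fbln5 and Veph1 did not pass without the TWEAK samples with islet reads (adjusted p = 0.0786 and 0.317). Leaving out single samples moved Veph1 between 1.01 and 1.75. Grin1, a subunit of the NMDA receptor, rose by 1.39 and its antisense gene Grin1os by 1.17. The library kit does not mark strand, so reads of Grin1 and Grin1os cannot be told apart.

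The most abundant genes past both cut-offs exceed 1.5-fold by selection, so they do not give the size of change among all strongly expressed transcripts. On the lowered side the most abundant genes past both cut-offs were Sprr1a, Pdgfb, Cxcl16, Cd82 and Myo10. Sprr1a, a cornified envelope protein of stressed epithelium, measured 1370, 1380 and 1400 CPM with TWEAK and 889, 904 and 876 CPM with NIK SMI1 (log2 fold change -0.64, SE 0.040, adjusted p = 3.21e-12). Pdgfb, a growth factor for pericytes and fibroblasts, measured 724, 704 and 689 CPM and 471, 456 and 455 CPM (log2 fold change -0.61, SE 0.033, adjusted p = 9.43e-14). The tetraspanin gene Cd82 measured 342, 347 and 344 CPM and 217, 211 and 206 CPM (log2 fold change -0.70, SE 0.034, adjusted p = 1.51e-14), and Myo10, a motor protein of filopodia, changed by -0.60 on the log2 scale (adjusted p = 2.12e-08). All 5 decreases were of 1.51-fold to 1.63-fold. On the raised side, Ctla2a, an inhibitor of cysteine proteases, measured 408, 424 and 439 CPM with TWEAK and 763, 719 and 743 CPM with NIK SMI1 (log2 fold change 0.81, SE 0.035, adjusted p = 1.25e-15). F2rl1, the protease-activated receptor PAR2, measured 123, 119 and 121 CPM and 216, 222 and 221 CPM (log2 fold change 0.86, SE 0.036, adjusted p = 4.8e-16). Trpa1, an ion channel for irritants, measured 66.4, 68.7 and 69.5 CPM and 127, 116 and 119 CPM (log2 fold change 0.82, SE 0.039, adjusted p = 8.39e-15). These 3 increases were of 1.75-fold to 1.82-fold. Adamtsl4 and Mfap3l rose by 0.61 and 0.67 on the log2 scale (adjusted p = 3.92e-10 and 5.16e-11).

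Genes of sterol and fatty acid synthesis were raised almost as a whole, each by a small amount. These enzymes build cholesterol and unsaturated fatty acids under the control of SREBP transcription factors. Of 30 genes, all of them tested, 27 were raised and 0 were lowered at any size, against 10.2% of all tested genes raised, and 3 rose by more than 1.5-fold. The median log2 fold change was 0.36. In the fit without islet reads, 25 were raised and 0 lowered, with a median of 0.34. The genes that did not pass, named here after their values were seen, were the SREBP genes themselves, Srebf1 and Srebf2, and Acly, which makes cytosolic acetyl-CoA. Scd2, a desaturase that makes monounsaturated fatty acids, measured 720, 671 and 716 CPM with TWEAK and 1040, 1040 and 1050 CPM with NIK SMI1 (log2 fold change 0.57, SE 0.032, adjusted p = 2.14e-13). Its level with the inhibitor was not shown to differ from the vehicle mean of 1107 ± 6.75 CPM (log2 fold change -0.085, adjusted p = 0.0637).

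Lss, which closes the rings of lanosterol, measured 63.9, 66.4 and 69 CPM with TWEAK and 98.7, 102 and 102 CPM with NIK SMI1 (log2 fold change 0.60, SE 0.037, adjusted p = 2.21e-12). Cyp51, the demethylase of lanosterol, measured 205, 194 and 209 CPM and 272, 287 and 294 CPM (log2 fold change 0.49, SE 0.036, adjusted p = 5.58e-11). Stard4, which carries cholesterol between membranes, measured 35.2, 32.2 and 37.1 CPM and 54.7, 57.3 and 57.8 CPM (log2 fold change 0.70, SE 0.052, adjusted p = 6e-11). In all 3 every sample with the inhibitor exceeded every TWEAK sample by more than the spread within either group. Over the list, the summed level was 4340 to 4560 CPM with TWEAK and 5490 to 5620 CPM with NIK SMI1. At 6 h, in other samples, 23 of the 30 were raised and 0 lowered, with a median of 0.23, against 5.34% of all tested genes raised. By the test of the difference, 7 rose more at 24 h than at 6 h, against 3.11% of all tested genes.

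**Figure D4:**
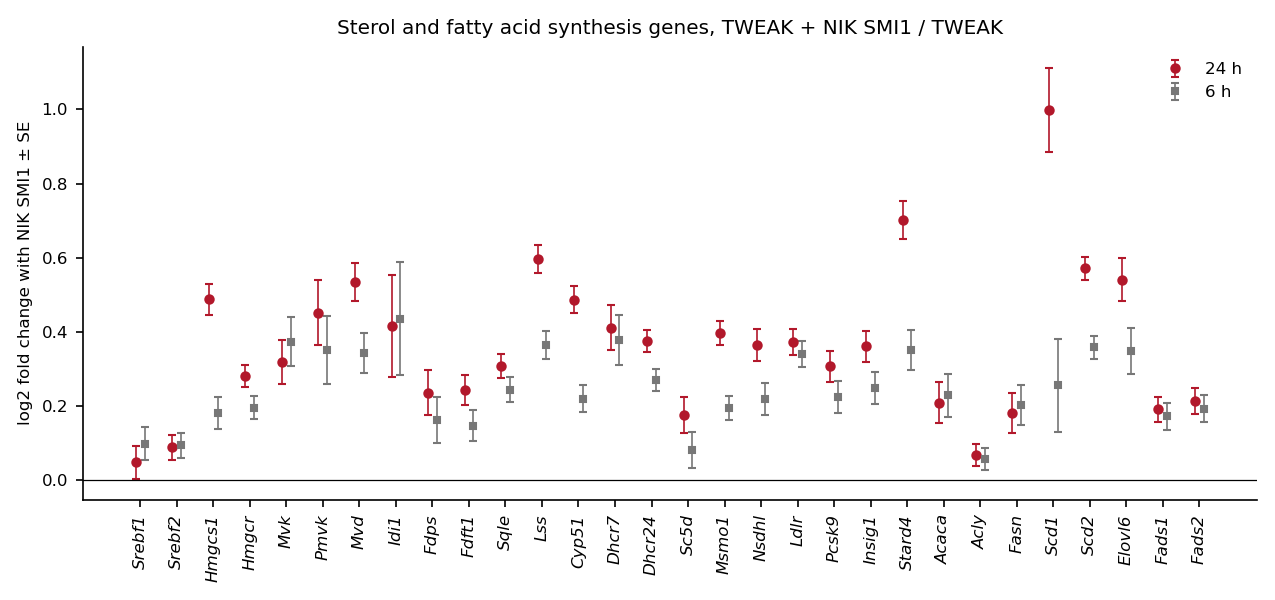
Log2 fold change of TWEAK with NIK SMI1 over TWEAK for the 30 genes of sterol and fatty acid synthesis (horizontal, in pathway order), with SE bars, at 24 h (red circles) and 6 h (grey squares). All 30 points of 24 h lie above 0, with a median of 0.36, and those of 6 h have a median of 0.23.

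Genes of the cell cycle and DNA replication were also more often raised than lowered. Of 39 tested, 19 were raised and 3 lowered at any size, with 0 past 1.5-fold in either direction and a median of 0.16. With the islet-read samples left out, the counts were 14 and 3. At 6 h, 2 were raised and 2 lowered, near the 5.34% and 5.71% of all tested genes. By the test of the difference, 14 had a higher effect at 24 h than at 6 h, against 3.11% of all tested genes. Counts from that test depended on the samples used and on the scaling, as given below. Ccnd2, a cyclin of the G1 phase, measured 423, 425 and 437 CPM with TWEAK and 576, 557 and 554 CPM with NIK SMI1 (log2 fold change 0.39, SE 0.031, adjusted p = 2.49e-10). Ccne1, the cyclin of S phase entry, measured 20.4, 19.8 and 21 CPM and 30.6, 28.3 and 28 CPM (log2 fold change 0.51, SE 0.060, adjusted p = 2.63e-07), and its level with the inhibitor was not shown to differ from vehicle (log2 fold change -0.070, adjusted p = 0.494). Rrm2, a subunit of ribonucleotide reductase, measured 113, 107 and 112 CPM and 129, 132 and 133 CPM (log2 fold change 0.25, SE 0.036, adjusted p = 6.72e-06). Against these, the growth regulator Myc fell from 251, 244 and 246 CPM to 190, 202 and 192 CPM (log2 fold change -0.34, SE 0.034, adjusted p = 1.32e-08).

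Markers of epithelium and of tubular injury were more often raised than lowered. Of 13 tested epithelial markers, 8 were raised and 2 lowered at any size, and of 18 genes of tubular injury and repair, 9 were raised and 1 lowered, with a median of 0.18 and 1 member past 1.5-fold. The fit without islet reads gave the same injury counts, 9 and 1. Both lists hold the keratin genes Krt8, Krt18 and Krt19, so their counts are not independent. Keratin genes were among the raised ones. Krt19 measured 802, 804 and 769 CPM with TWEAK and 1080, 1100 and 1090 CPM with NIK SMI1 (log2 fold change 0.46, SE 0.033, adjusted p = 2.83e-11), and Krt7 measured 2610, 2580 and 2520 CPM and 3330, 3270 and 3260 CPM (log2 fold change 0.36, SE 0.032, adjusted p = 2.28e-09). Prom1, which encodes the progenitor marker CD133, measured 423, 423 and 433 CPM and 648, 580 and 584 CPM (log2 fold change 0.50, SE 0.035, adjusted p = 1.94e-11). Cdh6, a cadherin of the developing tubule, rose by 0.51 on the log2 scale (adjusted p = 1.16e-08), and Cdh16, the kidney-specific cadherin, by 0.54 (adjusted p = 1.06e-08). The epithelial adhesion gene Epcam went the other way, from 1210, 1170 and 1180 CPM to 860, 847 and 874 CPM (log2 fold change -0.46, SE 0.033, adjusted p = 3.35e-11). The usual injury markers did not pass. Havcr1, which encodes KIM-1, measured 3.41, 3.24 and 3.02 CPM with TWEAK and 3.82, 3.63 and 3.64 CPM with NIK SMI1 (adjusted p = 0.319), and Lcn2, which encodes NGAL, 64.8, 63.7 and 70.4 CPM and 71.7, 53.6 and 54.8 CPM (adjusted p = 0.205). The Havcr1 samples did not overlap, and those of Lcn2 did because of the first NIK SMI1 sample.

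The EGF and TGF-β families held changes in both directions, with 7 of 30 tested genes lowered and 12 raised (6 and 12 in the fit without islet reads). Tgfb2, a ligand, measured 11.5, 13.6 and 12.5 CPM with TWEAK and 4.85, 5.42 and 4.37 CPM with NIK SMI1 (log2 fold change -1.37, SE 0.12, adjusted p = 9.94e-10). Id2, a target of BMP signaling that inhibits helix-loop-helix factors, measured 11.7, 10.6 and 9.57 CPM and 19.6, 17.5 and 19.1 CPM (log2 fold change 0.83, SE 0.076, adjusted p = 3.19e-09). The ligand thus fell and Id2 rose. Beside the list counts given here, 8.21% of all tested genes were lowered and 10.2% raised. Among 16 tested Wnt genes 2 were lowered and 3 raised (2 and 1 without islet reads), and the ligand gene Wnt11 measured 7.94, 7.96 and 7.44 CPM and 3.47, 3.74 and 3.23 CPM (log2 fold change -1.16, SE 0.10, adjusted p = 2.4e-09). Xenobiotic metabolism had 8 of 22 tested genes lowered and 4 raised (8 and 2 without islet reads). Abcb1a, a P-glycoprotein that exports drugs, measured 19.7, 19.6 and 21.1 CPM with TWEAK and 7.25, 9.75 and 8.39 CPM with NIK SMI1 (log2 fold change -1.26, SE 0.093, adjusted p = 6.13e-11). The glucuronosyltransferase Ugt1a7c fell by 0.53 on the log2 scale (adjusted p = 7.29e-10), but Ugt1a genes share exons, so their reads are not independent and 5 of the 8 lowered members are Ugt1a genes.

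Stress and energy lists held few changes beyond 1.5-fold, and their counts moved with the samples used. Without NIK SMI1 sample 1, which had few islet reads, p53 targets had 5 lowered and 2 raised. Integrated and endoplasmic reticulum stress then had 4 and 2. In the fit without islet reads, the loss of samples and the loss of islet reads cannot be told apart. Among NRF2 and antioxidant genes 4 of 24 were lowered and 7 raised (1 and 4 in the fit without islet reads). Sqstm1, an autophagy receptor, measured 1640, 1630 and 1630 CPM with TWEAK and 1190, 1150 and 1130 CPM with NIK SMI1 (log2 fold change -0.50, SE 0.034, adjusted p = 1.35e-11), and Gpx3, a secreted glutathione peroxidase made by the proximal tubule, 304, 301 and 312 CPM and 434, 388 and 374 CPM (log2 fold change 0.39, SE 0.047, adjusted p = 5.74e-07). Glycolysis and hypoxia genes were lowered in 4 and raised in 4 of 25 cases (3 and 2 without islet reads), among them Pfkfb4, a regulator of glycolytic flux, at 10.5, 10.4 and 10.5 CPM and 19.7, 19.4 and 18.6 CPM (log2 fold change 0.88, SE 0.059, adjusted p = 1.24e-11). Of all tested genes 8.21% were lowered and 10.2% raised, and counts near those shares are no result about a list. Lowered and raised counts were 7 and 5 of 26 for apoptosis and survival and 5 and 4 of 18 for p53 targets. For integrated and endoplasmic reticulum stress the counts were 4 and 4 of 22. They were 3 and 2 of 21 for fatty acid oxidation, 1 and 0 of 22 for the respiratory chain, 7 and 7 of 32 for immediate early genes and MAPK feedback, and 3 and 1 of 16 for the circadian clock. In the fit without islet reads the same counts were 5 and 3 for apoptosis, 5 and 1 for p53 targets, 4 and 1 for stress, 0 and 1 for fatty acid oxidation, 0 and 0 for the respiratory chain, 6 and 4 for immediate early genes and 1 and 0 for the clock. Of 3 other kinases that the study named in its selectivity screen of the compound, no gene passed with all samples. Map4k5 changed by 0.068 (adjusted p = 0.247), Lrrk2 by -0.14 (adjusted p = 0.108) and Prkd1 by -0.22 (adjusted p = 0.453). Lrrk2 passed when TWEAK sample 2 was left out (log2 fold change -0.19, adjusted p = 0.0368). RNA levels do not measure kinase activity.

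The effect at 24 h could be compared with that at 6 h, which was measured in samples of its own. At 6 h, 885 genes were lowered (5.71%) and 829 raised (5.34%) at any size. Of the 260 genes lowered by more than 1.5-fold at 24 h, 157 (60.4%) were lowered at 6 h and 0 were raised, and their median log2 fold change at 6 h was -0.68. Of the 234 raised genes, 82 (35%) were raised at 6 h and 0 were lowered, with a median of 0.30. Past 1.5-fold at both times, 113 lowered genes were shared, which is 43.5% of those of 24 h and 66.5% of the 170 of 6 h. On the raised side 24 were shared, which is 10.3% of those of 24 h and 52.2% of the 46 of 6 h.

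Tested as the difference itself, the effect was lower at 24 h than at 6 h for 249 of the tested genes (1.61%) and higher for 482 (3.11%). Upper quartile scaling shifted this split to 340 and 394, so the balance of the directions depends on the scaling. Leaving out the TWEAK samples with islet reads reduced the genes that differed from 731 to 274. In the 9 samples of 6 h the islet genes summed to between 22.6 and 43.6 CPM. Among the genes lowered by more than 1.5-fold at 24 h, 48 fell further at 24 h than at 6 h and 0 less, and among the raised genes 65 rose further and 0 less. The selection by the value at 24 h favours that direction. Col5a3 changed by -0.12 at 6 h (adjusted p = 0.832) and by -2.25 at 24 h, a difference of -2.13 (SE 0.33, adjusted p = 0.000329). Cxcl10 changed by -0.55 at 6 h and by -1.97 at 24 h, a difference of -1.42 (SE 0.22, adjusted p = 0.000323). For Mmp9 the values were -1.49 and -2.48 (difference -0.99, SE 0.12, adjusted p = 2.03e-05). A larger effect at 24 h was not found for every strongly lowered gene. Vcam1 changed by -2.63 and -2.82 (difference -0.19, adjusted p = 0.289) and Ccl9 by -2.35 and -2.29 (difference 0.051, adjusted p = 0.842). On the raised side, Igfbp5 changed by 0.53 at 6 h and 1.31 at 24 h (difference 0.78, SE 0.068, adjusted p = 6.82e-08), and Ctla2a by 0.20 and 0.81 (difference 0.61, SE 0.049, adjusted p = 2.36e-08). Mctp1 did not pass at 6 h (0.16, adjusted p = 0.308) and rose by 1.40 at 24 h (difference 1.24, adjusted p = 5.86e-05).

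**Figure D5:**
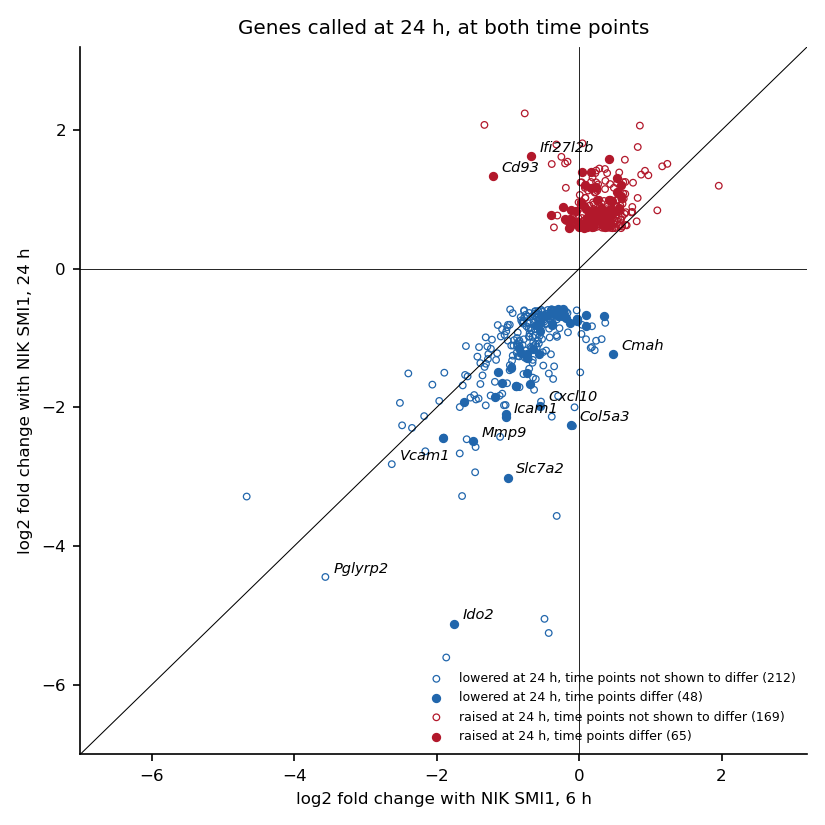
Log2 fold change with NIK SMI1 at 6 h (horizontal) and at 24 h (vertical) for the 260 genes lowered and the 234 raised by more than 1.5-fold at 24 h, with filled points where the 2 effects differ (adjusted p-value below 0.05) and a line of equal effects. The 48 filled lowered and 65 filled raised points all lie on the side of a larger effect at 24 h.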

How the data were processed

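RNASeq counts of 18 samples were analysed, of which 6 enter the main comparison. The authors used GSNAP against mouse NCBI build 37 and deposited, per gene, raw counts of uniquely aligned exonic reads, RPKM values and the exonic width. The deposited counts served all tests, the RPKM values only the comparison of levels between genes, and the deposited width was not used further. Per the labels, libraries came from the TruSeq RNA kit v2, and the submitters' notes name DESeq2.

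Genes with more than 10 reads in at least 4 samples were fitted in edgeR 4.0.16 (R 4.3.3) as 6 groups of 3 samples with TMM normalization and the quasi-likelihood test. Benjamini-Hochberg adjustment covered all 15510 genes, and DESeq2 1.42.0 was an alternative. Calls needed an adjusted p-value below 0.05, and a change of more than 1.5-fold where stated. Levels are TMM-scaled CPM. Symbols came from a RefSeq table by Entrez identifier (14550 of 15510 matched), and coordinates only from its promoter table. The scripts were tested on simulated data.

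Members and gene lists were chosen with earlier results of these data known. Genes named are the 15 lowest and 15 highest fold changes past the cut-offs with separated samples and at least 1 CPM, up to 4 members per list with the smallest p-values, pathway, injury and kinase genes stated in the design, the 5 largest differences between times in each direction among called genes, and the 5 most abundant called genes in each direction. Genes outside this rule are named with that remark, and 1 gene that it picks is not reported here. Sample numbers follow accession order and pair nothing. Depth was 18040966 to 51956444 reads per sample over all 18 samples, and precision for low genes is limited by counting.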

Additional observations from a re-analysis of the deposited data

Results flagged for a closer look

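The 55 named genes below were picked out because the effect of NIK SMI1 at 24 h differed from its effect at 6 h by a test of the difference itself in edgeR, with adjusted p-values from 2.36e-08 (Ctla2a) to 0.0486 (Wnt11) and SE from 0.044 (Ccnd2) to 0.76 (Ido2). The 2 effects share no sample. Values are log2 fold changes at 24 h minus those at 6 h, and genes chosen for a large value at 24 h tend to a larger effect there.

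The decrease was larger at 24 h for Ido2 (-3.37), Col5a3 (-2.13), Slc7a2 (-2.01), Cxcl10 (-1.42), Icam1 (-1.11), Mmp9 (-0.99), C3 (-0.80), Nfkbie (-0.55), Traf1 (-0.52), Wnt11 (-0.52), Birc3 (-0.40), Relb (-0.37), Nfkbia (-0.35), Cish (-0.31), Tnip1 (-0.30), Cx3cl1 (-0.29), Pdgfb (-0.29), Myc (-0.28), Sqstm1 (-0.27), Adam8 (-0.21), Csf1 (-0.21), Cxcl16 (-0.19) and Tapbp (-0.18). The increase was larger at 24 h for Scd2 (0.21), Ccnd2 (0.21), Krt19 (0.21), Lss (0.23), Cadm1 (0.26), Cyp51 (0.27), Cdh6 (0.27), Rrm2 (0.28), Prom1 (0.31), Pfkfb4 (0.32), Gpx3 (0.35), Stard4 (0.35), Ccne1 (0.39), Cdh16 (0.40), Id2 (0.40), F2rl1 (0.41), Adamts5 (0.42), Mfap3l (0.49), Trpa1 (0.52), Ctla2a (0.61), Gcnt1 (0.62), Igfbp5 (0.78), ccdc198 (0.94), Tc2n (1.12), Sprr2g (1.16), Mctp1 (1.24) and Grin1 (1.35). The adhesion gene Epcam (0.16) was lowered less at 24 h than at 6 h.

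Rrm2 changed by -0.028 at 6 h, below 0 but with an adjusted p of 0.734. For 4 other genes, all called at 24 h, the effects had opposite signs at the 2 times. Cmah (-1.71) changed by 0.48 at 6 h and -1.23 at 24 h. Cd93 (2.56) changed by -1.21 and 1.34, Ifi27l2b (2.30) by -0.67 and 1.63, and Ccdc74a (1.18) by -0.40 and 0.78. None of the 4 passed the test at 6 h (adjusted p = 0.418, 0.0895, 0.301 and 0.29). Cd93 had 3, 6 and 3 reads in the TWEAK samples and 16, 9 and 6 reads with NIK SMI1 at 24 h, and Cmah had 11, 15 and 6 reads with the inhibitor. All 4 missed the threshold at 24 h without the TWEAK samples with islet reads, and leaving out single samples took the call from Cmah (without TWEAK sample 3 or NIK SMI1 sample 1 or 3), Ifi27l2b (without NIK SMI1 sample 3, adjusted p = 0.0685) and Ccdc74a (without TWEAK sample 2 or 3 or NIK SMI1 sample 1 or 3), while Cd93 reached adjusted p-values up to 0.195.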

How the results depend on the processing

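The counts of 260 lowered and 234 raised genes stayed within 1.5 times under DESeq2, other size factors, upper quartile scaling, no filter, filterByExpr, fits of the 9 or 6 samples of interest and with the islet genes kept. The test of edgeR against a 1.5-fold change itself (glmTreat) left 99 lowered and 30 raised, a stricter question by construction. Without the TWEAK samples with islet reads 151 genes were raised, and 274 in place of 731 differed between times, with 2 fewer samples. Leaving out 1 sample at a time gave 227 to 247 lowered, 190 to 225 raised and 400 to 878 that differed, with 469 without TWEAK sample 2 and 400 without NIK SMI1 sample 3. Without a filter 1062 genes differed between times. Among 1694 values of the 106 named genes under alternatives, 1608 kept their direction and side of the threshold, 80 of 57 genes no longer passed, 3 newly passed and 3 turned. Those that turned were of 2 genes that were not called. Tnfrsf12a ranged from -0.036 to 0.011 without single samples (0.011 without TWEAK sample 1), and Prkd1 from -0.37 to 0.021 (0.021 without TWEAK sample 3) and was 0.056 without the samples with islet reads. Between the lowest and highest value without single samples, Cd74 moved from -2.48 to -1.39 and Cmah from -1.60 to -0.93. Lcn2 newly passed without a filter (adjusted p = 0.0131) and without NIK SMI1 sample 1 (0.000193), and Lrrk2 without TWEAK sample 2 (0.0368). The cause was not tested for these changes. No paired analysis was possible because the labels give no replicate numbers. Depth limits genes under 1 CPM, whose folds rest on few reads.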
